A study of Mus musculus with 3 samples.

Results

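The 28 genes described here encode enzymes and regulators of cholesterol and fatty acid synthesis. They were taken as a list of named genes, 28 of the 31053 genes in the count matrices, and all 28 were found by symbol. They comprised 7 genes of the mevalonate steps (*Acat2*, *Hmgcs1*, *Mvk*, *Pmvk*, *Mvd*, *Idi1* and *Fdps*), 12 genes that turn farnesyl diphosphate into cholesterol (*Fdft1*, *Sqle*, *Lss*, *Cyp51*, *Tm7sf2*, *Lbr*, *Msmo1*, *Nsdhl*, *Hsd17b7*, *Ebp*, *Sc5d* and *Dhcr7*), 3 genes of sterol sensing and transport (*Srebf2*, *Insig1* and *Stard4*) and 6 genes of fatty acid synthesis (*Acly*, *Acss2*, *Fasn*, *Elovl6*, *Scd1* and *Scd2*). The first 22 are called the cholesterol genes below.

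The iridocorneal angle, where aqueous humor leaves the eye, was dissected with the adjoining limbus from mice aged 6 weeks and sequenced as single cells in 3 droplet libraries. Both control libraries came from *Angpt1* flox/flox mice, and the single *Angpt1*ΔNC library came from *Angpt1* flox/flox;Wnt1Cre+ mice, in which Wnt1-Cre removes the vessel growth factor *Angpt1* from neural crest derivatives. All mice carried the floxed alleles on a mixed background bred to albino ICR mice, and the eyes of 2 to 3 mice went into every library. With 1 mutant library there was no replicate of the mutant genotype, and differences between pools of the same genotype were seen only between the 2 controls.

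Cells make cholesterol from acetyl-CoA through mevalonate and a long series of sterol intermediates. When sterols in the endoplasmic reticulum run low, the transcription factor SREBP-2, encoded by *Srebf2*, is released from the membrane protein INSIG-1 and drives nearly every gene of the route, while SREBP-1 acts more on the fatty acid genes. Liver X receptors respond to high sterols and drive the exporter *Abca1* and, with SREBP-1, the desaturase *Scd1*.

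The kept cells numbered 9076 and 10160 in the controls and 6772 in *Angpt1*ΔNC, with a median of 6329.5, 6393.5 and 7444 UMIs (unique molecular identifiers, each 1 counted transcript) per cell. *Angpt1*, the deleted gene, was at 37.8 and 39.3 CPM (a gene's UMIs scaled to a common library size) in the controls and 0.391 in *Angpt1*ΔNC, the direction that the labels state. The study describes mixed-sex pools, but *Xist*, the transcript of the inactive X, was at 652 CPM in *Angpt1*ΔNC and at 0.0390 and 0.0249 in the controls. Genotype and sex of the pool therefore cannot be told apart over all cells, and results are also given for male-typed cells alone (a UMI of a Y-linked gene and none of *Xist*; 6325, 7326 and 1990 cells). Between 13 and 25 kept cell barcodes were shared by any pair of libraries. Cell groups are given by the 35 labels deposited with the cells, in the names the study uses: 8 and 9 are melanocytes, 5 is corneal epithelium, 7 is ciliary epithelium, 19 is smooth muscle, 20 is pericytes, 21 is vascular smooth muscle, EC2 to EC4 are blood endothelium and TM1 to TM11 are stromal and trabecular meshwork cells. The listed melanocyte, pericyte, smooth muscle, surface epithelium and pigment epithelium markers were highest in labels of those names. Label 10, which the study calls astrocytes, was highest for the Schwann cell and myelin markers, at 75.3, 86.8 and 103.6 per 10,000, and is called by its number here.

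Many sterol genes carry, close to the start of transcription, a sterol regulatory element that SREBP binds, beside boxes for NF-Y and Sp1, the factors it needs. RefSeq promoters (GRCm38.p6, 250 bases before to 50 after the start) were at hand for 22 of the 28 members. The NF-Y box CCAAT, read on both strands, stood in 20 of these 22, all but *Acat2* and *Elovl6*, against 37.4% of all 32851 promoters and 41.1% of all 27025 genes in the table. The Sp1 box GGGCGG stood in 19 of 22 against 35.7% of all promoters and 38.2% of genes. The sterol element TCACNCCAC stood in 1 member, *Hmgcs1*, and in 1.24% of all promoters and 1.44% of genes. No match says only that these letters are not in the window. The promoters of 4 members that the results below turn on are printed 5′ to 3′, with NF-Y boxes and the sterol element in capitals.

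Hmgcs1 (chr13:119690101-119690400, plus strand): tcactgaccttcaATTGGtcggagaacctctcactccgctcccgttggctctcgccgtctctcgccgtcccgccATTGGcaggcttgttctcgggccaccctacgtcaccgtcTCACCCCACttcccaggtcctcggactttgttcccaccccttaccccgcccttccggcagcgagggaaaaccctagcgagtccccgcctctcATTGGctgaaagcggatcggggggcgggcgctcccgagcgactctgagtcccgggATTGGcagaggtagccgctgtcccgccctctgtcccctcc
Idi1 (chr13:8885356-8885655, plus strand): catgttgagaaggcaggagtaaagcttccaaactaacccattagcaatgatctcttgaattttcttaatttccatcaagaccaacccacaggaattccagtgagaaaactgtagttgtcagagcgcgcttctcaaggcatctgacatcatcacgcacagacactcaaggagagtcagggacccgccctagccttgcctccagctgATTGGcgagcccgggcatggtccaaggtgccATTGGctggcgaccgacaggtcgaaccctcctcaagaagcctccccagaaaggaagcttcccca
Msmo1 (chr8:64733529-64733828, minus strand): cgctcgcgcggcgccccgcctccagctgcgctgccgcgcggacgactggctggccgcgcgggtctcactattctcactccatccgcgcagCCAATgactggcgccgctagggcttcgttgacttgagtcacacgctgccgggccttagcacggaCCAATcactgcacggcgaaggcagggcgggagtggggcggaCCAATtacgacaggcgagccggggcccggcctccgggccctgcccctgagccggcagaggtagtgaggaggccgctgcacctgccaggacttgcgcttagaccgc
Cyp51 (chr5:4104648-4104947, minus strand): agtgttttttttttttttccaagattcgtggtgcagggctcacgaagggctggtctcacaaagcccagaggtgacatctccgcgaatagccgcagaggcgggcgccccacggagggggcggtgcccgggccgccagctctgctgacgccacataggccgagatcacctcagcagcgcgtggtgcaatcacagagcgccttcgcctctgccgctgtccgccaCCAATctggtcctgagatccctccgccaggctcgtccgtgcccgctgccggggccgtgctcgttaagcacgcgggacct

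The *Hmgcs1* promoter held 4 NF-Y boxes and the sterol element TCACCCCAC, which starts 137 bases before the start of transcription. *Msmo1* held 3 NF-Y boxes, at 160, 96 and 55 bases before the start, *Idi1* held 2, at 45 and 14 bases, and *Cyp51* held 1, at 29 bases.

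Over the cell types, the cholesterol genes were highest in ciliary and corneal epithelium, corneal endothelium and the labels 17 and 18, and lowest in blood endothelium and monocytes. A level here is a gene's UMIs per 10,000 UMIs of a cell, averaged over the cells, and the level of a group adds up its genes. Over all cells the 22 cholesterol genes summed to 10.2 and 8.43 in the controls and 10.6 in *Angpt1*ΔNC. In label 18 the sum was 17.8, 26.5 and 18.4 (control 1, control 2 and *Angpt1*ΔNC, the order used throughout). In ciliary epithelium it was 21.7, 16.8 and 23.8. In label 17 it was 22.7, 18.7 and 19.4. These 3 labels overlapped, and each lay in all libraries above label 10, the sixth in order, at 13.9, 14.7 and 14.1. TM2, which the study names corneal endothelium, stood at 22.6, 15.6 and 15.2 and corneal epithelium at 22.4, 13.02 and 15.9, so control 1 was the high library in both. At the other end, the arterial label EC4 was at 3.23, 3.27 and 3.34 and the monocyte label 24 at 3.45, 2.83 and 3.44. The means of the highest and lowest of the 29 labels with at least 50 cells in every library differed 6.44-fold. Of the 28 pairs of neighbors in this order, 27 overlapped between libraries and TM7 with label 22 did not. As a description over these 29 labels, the order of control 1 had a Spearman rho of 0.966 with control 2 and 0.944 with *Angpt1*ΔNC.

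**Figure D1:**
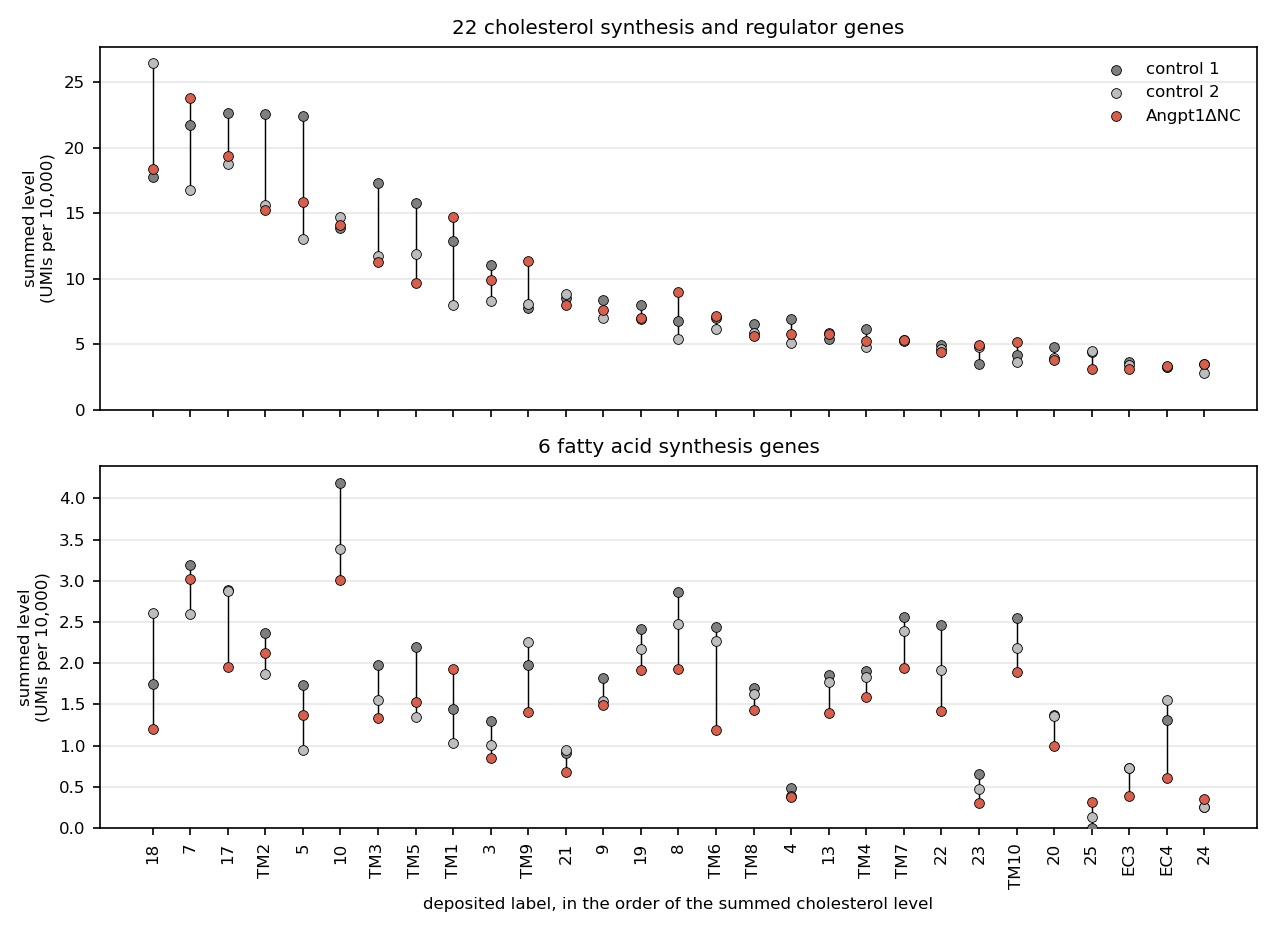
Summed level of the 22 cholesterol genes (top) and the 6 fatty acid genes (bottom) in UMIs per 10,000, for 29 labels. Each point is 1 library, lines join the lowest and highest library, and the labels run from the highest to the lowest mean of the cholesterol genes; label 10 was highest for the fatty acid genes with 4.19, 3.38 and 3.01.

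The highest label of a gene is given below by its mean control level. It was the same in each library for *Pmvk*, *Msmo1*, *Fdft1*, *Ebp* and *Lbr*, and differed between libraries for the other genes for which a highest label is given.

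Among the mevalonate genes, *Hmgcs1* (HMG-CoA synthase, chr13:119690379-119708260 in GRCm38), *Idi1* (isopentenyl diphosphate isomerase, chr13:8885501-8892451) and *Fdps* (farnesyl diphosphate synthase, chr3:89093588-89101959) had the most UMIs. *Hmgcs1* was highest in label 17, at 6.18, 4.79 and 3.96, and then in label 18, at 3.24, 5.86 and 4.08. Corneal epithelium held 1.90, 1.13 and 0.948 and the endothelial label EC3 held 0.152, 0.137 and 0.151, so the epithelium was above EC3 in every library. *Idi1* was highest in label 18, at 2.36, 4.35 and 2.60, and *Fdps* in corneal epithelium, at 2.55, 1.22 and 2.41. *Pmvk* (phosphomevalonate kinase) had another order. It was highest in vascular smooth muscle, label 21, at 1.93, 1.72 and 4.12, a mean control level 6.08 times that of the median label, while all cells held 0.371, 0.362 and 0.360. *Acat2* (acetoacetyl-CoA thiolase), *Mvk* (mevalonate kinase) and *Mvd* (mevalonate diphosphate decarboxylase) stayed at or below 0.202 over all cells in every library, and reads of *Acat2* can be shared with its adjacent near copy *Acat3*.

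Among the sterol genes, *Msmo1* (methylsterol monooxygenase, chr8:64718139-64733792) was highest in corneal epithelium, at 5.33, 3.67 and 3.99, against 0.376, 0.185 and 0.336 in EC4. With every cell thinned to 1,000 UMIs, 35.8%, 29.3% and 35.2% of corneal epithelial cells had a *Msmo1* UMI against 4.17%, 0.935% and 2.30% of EC4 cells. No cell type that lacks *Msmo1* was available as a background for these shares. *Cyp51* (lanosterol demethylase, chr5:4081145-4104746) was highest in TM3, at 3.16, 2.22 and 1.27, and then in TM2, the corneal endothelium, at 2.94, 2.11 and 1.204, with the mutant library low in both. *Sqle* (squalene epoxidase, chr15:59315077-59331192) was highest in label 18, at 1.53, 1.75 and 1.29, and *Fdft1* (squalene synthase) in ciliary epithelium, at 1.74, 1.04 and 1.49. *Ebp*, which moves a sterol double bond, did not share this order. Its highest levels were in the melanocyte labels 9, at 1.78, 1.62 and 1.60, and 8, at 1.40, 1.45 and 1.44, where the 3 libraries lay close together. *Lbr*, a sterol reductase that is also a receptor of the nuclear lamina, was highest in lymphocytes, label 22, at 1.05, 0.921 and 0.623.

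*Insig1*, which retains SREBP in the membrane, was highest in label 18, at 2.25, 2.39 and 1.56, and in TM2, at 2.56, 1.75 and 1.49, and its control level spanned a 13.3-fold range over 30 labels, beside 17.3-fold for *Stard4* and 4.99-fold for *Srebf2*. *Srebf2* lay between 0.291 and 0.416 over all cells. *Stard4*, a sterol carrier, was at 0.0893 and 0.0731 in the controls and 0.149 in *Angpt1*ΔNC.

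The fatty acid genes had an order of their own. Their sum was 1.92 and 1.71 in the controls and 1.38 in *Angpt1*ΔNC over all cells and was highest in label 10. *Scd2* (a stearoyl-CoA desaturase, chr19:44293674-44306864) was highest there, at 1.94, 1.44 and 1.501, and then in melanocytes of label 8, at 1.71, 1.44 and 1.19. *Scd1* (chr19:44394455-44407879), a neighboring desaturase gene, was highest in lymphocytes, at 1.56, 1.14 and 0.634, in label 10 at 1.11, 1.01 and 0.596, and in the stromal label TM10 at 0.980, 0.926 and 0.889. Corneal epithelium showed the pair apart, with *Scd2* at 1.03, 0.559 and 0.720 and *Scd1* at 0.0484, 0.0187 and 0.0247. *Acly* (ATP citrate lyase) and *Elovl6* (a fatty acid elongase) had their highest mean control level in ciliary epithelium. *Elovl6* was at 0.742, 0.662 and 0.410 there and at 0.578, 0.577 and 0.551 in TM7, which was the higher of both labels in *Angpt1*ΔNC. *Fasn* (fatty acid synthase) was at similar levels in many labels, such as 0.521, 0.404 and 0.367 in label 10 and 0.449, 0.426 and 0.432 in TM2, but low in EC3, at 0.0390, 0.0317 and 0.0326, and *Acss2* was the lowest of the group, at 0.0356, 0.0319 and 0.0306 over all cells.

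**Figure D2:**
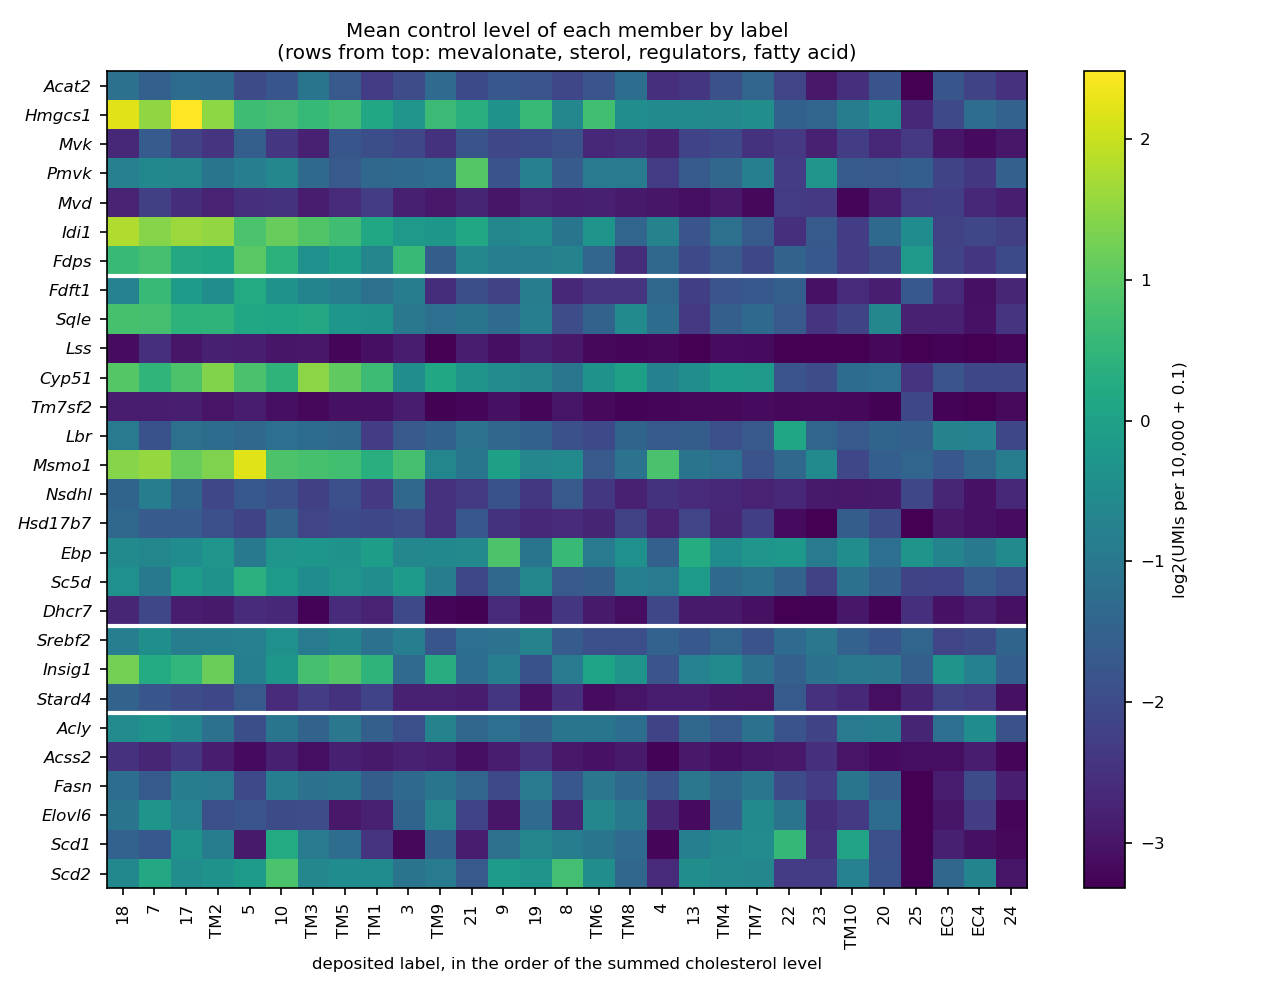
Mean control level of each of the 28 genes in 29 labels, as log2(UMIs per 10,000 + 0.1), with labels in the order of the summed cholesterol genes. *Hmgcs1*, *Idi1*, *Fdps*, *Sqle*, *Cyp51* and *Msmo1* fade from left to right, while *Pmvk* stands out in label 21, *Ebp* in labels 8 and 9 and *Lbr* in label 22.

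To see how far each gene followed the others over cell types, the log2 control level was set against the summed level of the other cholesterol genes over 30 labels that share their 2 libraries and their depth. Pearson's r was 0.936 for *Idi1*, 0.901 for *Sqle*, 0.848 for *Cyp51* and 0.838 for *Hmgcs1*, and 15 of the 22 cholesterol genes lay above 0.5. It was near 0 for *Ebp*, at 0.00338, and *Lbr*, at -0.0535. The median was 0.666 for the cholesterol genes, 0.396 for the fatty acid genes and 0.0723 over 2958 other genes with a mean level of at least 0.5. The members were not held to this level. *Lss*, for example, was at 0.0259 and 0.0159 over all control cells, so these medians compare genes of unlike levels. Of these 2958, the 10 most alike included *Tecr*, which encodes an enzyme of fatty acid elongation, with r = 0.703, *Sdc4* with 0.701 and *Pdcd4* with 0.643. *Acsl3*, *Mxra7*, *Mgarp*, *Hmgn3* and *Ncam1* were also among them, with r from 0.623 to 0.638. The exporter gene *Abca1* had r = -0.656 and stood at rank 2957 of 2958.

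Many cholesterol genes were also high in the same cells of a label. In each of 71 sets of at least 100 cells from 1 label and 1 library, cells thinned to 1,000 UMIs were ordered by the summed UMIs of the other cholesterol genes, and the 20% of cells with the most were set against the 20% with the least. *Idi1* was at 1.98 per 10,000 in the top and 0.637 in the bottom 20%, a ratio of 3.11. *Msmo1*, at 2.00 and 0.844, was higher in the top 20% in 57 of 71 sets. The ratio was 2.60 for *Sqle*, 2.74 for *Fdft1*, 2.34 for *Fdps*, 2.24 for *Hmgcs1* and 2.13 for *Insig1*, and each of the 3 libraries had a ratio above 1 for each of these. *Mvk* and *Ebp* had ratios of 0.953 and 0.976 and did not follow the others. Among the fatty acid genes only *Acly* and *Scd2* had ratios above 1.4, with 1.49 and 1.42, while *Scd1* and *Elovl6* lay at 0.963 and 0.919. Outside the list, *Abca1* was lower in the top 20%, with a ratio of 0.707. The median depth before thinning was 6670.5 UMIs in the top and 6492 in the bottom 20%. These are sparse counts, the sets share libraries, and the ratios are descriptions without a test.

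**Figure D3:**
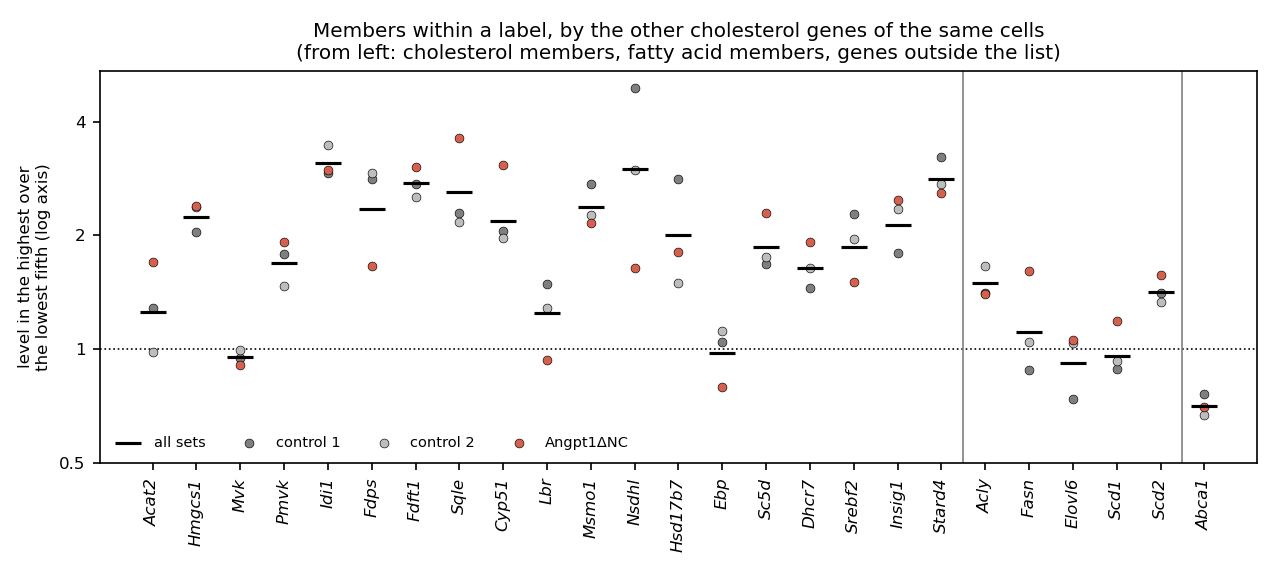
Level of each gene in the 20% of cells with the most UMIs of the other cholesterol genes over that in the 20% with the least, within labels (log axis; bar, all 71 sets; points, each library's sets). *Idi1*, *Nsdhl* and *Stard4* had the highest ratios, the fatty acid genes drawn lay between 0.919 and 1.49, and *Abca1* lay below 1; 4 members under 0.04 UMIs per 10,000 in the bottom 20% are not drawn.

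The genotype comparison asked which of these genes differed in *Angpt1*ΔNC within the same cell type. UMIs were summed per label and library and tested over all genes with edgeR's quasi-likelihood test, and values below are CPM after TMM scaling of the libraries. Every such comparison used the same 2 control libraries, so labels are not independent of each other. Over 29 labels, 639 pairs of a member and a label passed the filter on low counts. Of these, 28 were higher and 17 lower in *Angpt1*ΔNC at an adjusted p under 0.05, in 16 labels and 17 members. That is 4.38% higher and 2.66% lower, beside 2.54 and 2.52% of all 249562 pairs of a gene and a label. The mutant library lay above both controls in 38.7% of member pairs and below both in 35.5%, against 38.2 and 39.3% of all pairs. P-values and numbers of calls are not directly comparable between labels. The labels with the most calls were TM9 and the melanocyte labels 8 and 9. In each of them *Sqle*, *Msmo1* and *Hsd17b7* were called higher and a desaturase gene lower, and in label 9 *Cyp51* and *Insig1* were called lower as well.

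**Figure D4:**
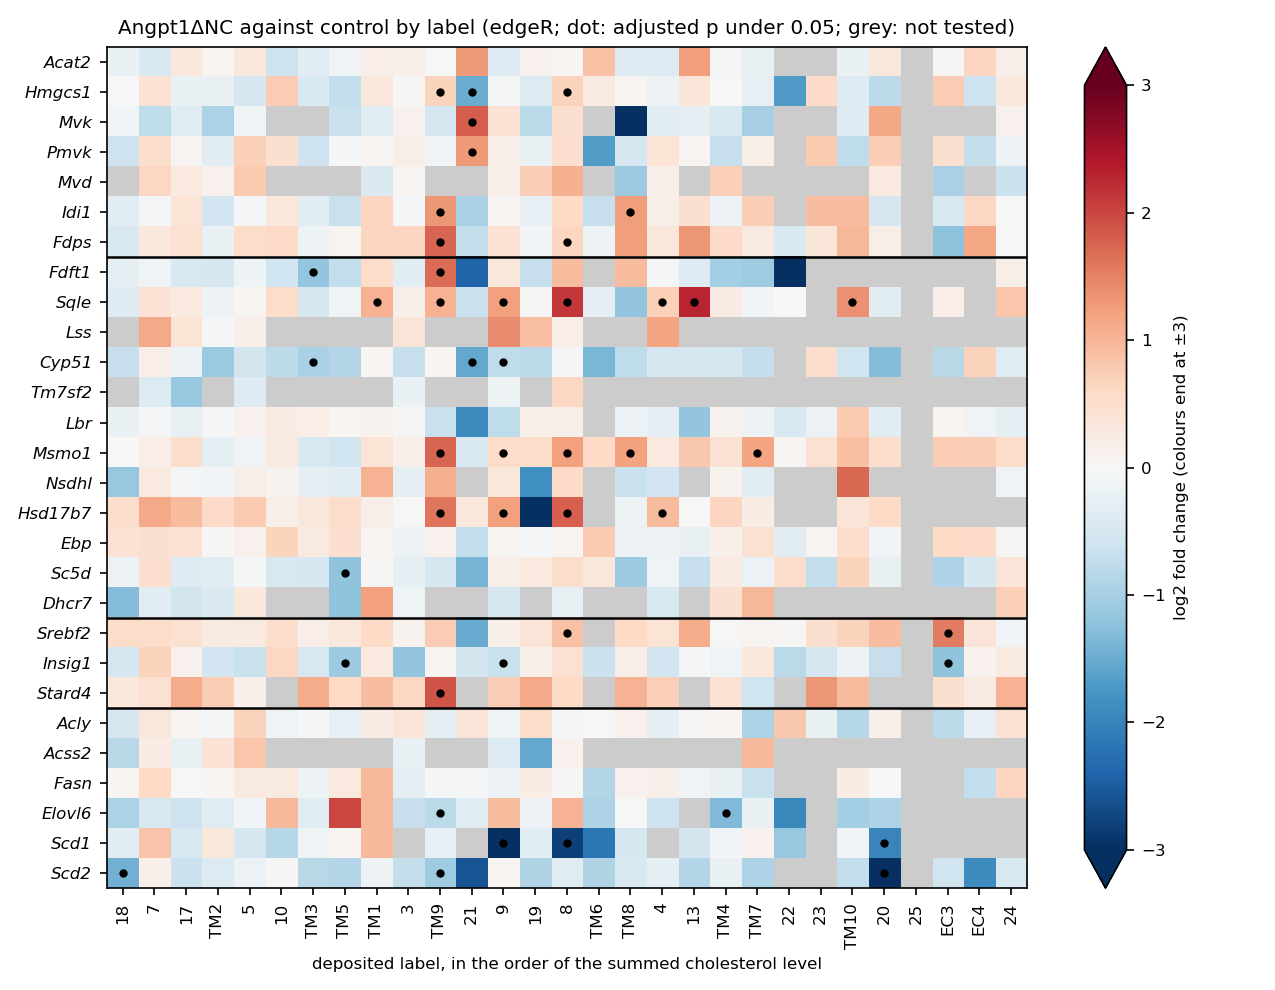
Log2 fold change of *Angpt1*ΔNC against control for each gene and label by edgeR (red, higher; blue, lower; dot, adjusted p under 0.05; grey, not tested), with labels in the order of the summed cholesterol genes. *Sqle* and *Msmo1* carry dots only for higher levels, *Cyp51*, *Scd1* and *Scd2* only for lower ones.

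In the stromal label TM9, 10 of the 23 members that passed the filter were called, 8 higher and 2 lower, where 15.1% of all genes tested were called, 7.16% higher and 7.92% lower. TM9 belongs to the cells that the study clustered as trabecular meshwork and stroma, but the summed level of the meshwork markers *Myoc*, *Chil1*, *Chad* and *Nell2* was low in it, at 1.17, 2.33 and 0.0681 per 10,000. *Msmo1* was at 47.5 and 56.9 CPM in the controls and 175.8 in *Angpt1*ΔNC, a log2 difference of 1.74 (SE 0.23, edgeR adjusted p = 1.47e-12). *Fdps* was at 18.04, 27.2 and 77.6 (log2 difference 1.74, SE 0.27) and *Idi1* at 70.3, 68.5 and 174.2 (1.33, SE 0.22). In all 3 genes the mutant library stood well above both controls. *Stard4* (4.75, 5.17 and 18.6), *Hsd17b7* (4.75, 8.41 and 21.2), *Sqle* (31.3, 34.3 and 68.0) and *Hmgcs1* (148, 114 and 207) were higher as well. The *Stard4* UMIs in TM9 were 5, 8 and 37, so its control values rest on few counts. *Stard4* may have passed the filter on low counts there only through the mutant library. *Hsd17b7* encodes the 3-ketosteroid reductase of the route. *Fdft1*, at 9.50, 3.88 and 20.1, had a log2 difference of 1.67 (SE 0.49), which was 1.07 without control 2 and 2.33 without control 1. *Elovl6* (52.2, 45.9 and 27.7) and *Scd2* (35.1, 47.9 and 20.1) were lower. *Cyp51*, at 82.6, 109.9 and 101.2, lay between the controls and was not called. Of 29 tested pathway genes outside the list, 3 were called higher and 3 lower. *Apoe*, which carries cholesterol between cells, rose by 1.13 on the log2 scale, while *Abca1* fell by 0.86 and *Acsl3*, an acyl-CoA synthetase, by 1.04, each at an adjusted p under 0.05 in edgeR. In male-typed cells alone (142, 219 and 96 cells), *Msmo1* and *Sqle* remained called, with log2 differences of 1.04 and 1.26, and the other 8 kept their direction but not the call. DESeq2 called *Msmo1* and *Idi1* in all TM9 cells. The dissociation stress genes summed to 14.7, 11.9 and 7.96 per 10,000 in TM9 and the erythrocyte markers to 0.194, 0.213 and 4.75. The keratocyte markers summed to 103.9, 110.2 and 150.8 there. The part of these lists in the TM9 results was not tested.

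In the melanocyte label 8, all 28 genes passed the filter, 6 were higher and 1 lower, beside 8.74% of all genes tested, 4.56% higher and 4.18% lower. Of the cholesterol genes, 20 of the 22 had a log2 difference above 0, with a median of 0.58, beside a median of -0.0059 over all genes tested. *Sqle* had the largest difference among the higher genes, at 22.1 and 9.82 CPM in the controls and 71.3 in *Angpt1*ΔNC (log2 difference 2.13, SE 0.31, edgeR adjusted p = 0.00298). The controls themselves differed for *Sqle*, and the log2 difference was 1.69 without control 2 and 2.85 without control 1. *Hsd17b7* was at 8.19, 5.18 and 23.5 (1.79, SE 0.26) and *Msmo1* at 63.9, 50.6 and 133.7 (1.22, SE 0.15). *Srebf2* (25.3, 20.5 and 42.6), *Hmgcs1* (59.8, 49.4 and 88.8) and *Fdps* (53.1, 50.6 and 81.4) were higher by smaller steps. Of 29 tested pathway genes outside the list, 7 were called higher and 1 lower. *Insig2*, which retains SREBP like *Insig1*, rose by 0.64 and *Elovl5*, a fatty acid elongase, by 1.02 on the log2 scale, and *Abca1* fell by 1.08. All 7 member calls were also made in male-typed cells alone (687, 628 and 134 cells), and DESeq2 called *Hsd17b7*, *Msmo1* and *Scd1*.

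*Scd1* went the other way in both melanocyte labels. In label 8 it was at 43.9 and 42.7 CPM in the controls and 6.22 in *Angpt1*ΔNC (log2 difference -2.80, SE 0.21, edgeR adjusted p = 6.21e-05). In label 9 it was at 33.4, 31.7 and 3.37 (-3.26, SE 0.40, edgeR adjusted p = 1.26e-13). The controls lay close together in both labels, and the mutant library was far below them. Its neighbor *Scd2*, at 170, 152 and 125 in label 8 and 81.8, 75.2 and 81.8 in label 9, was not called, and neither was *Fasn*, at 21.8, 17.7 and 20.4 in label 8. The adipocyte marker list moved with *Scd1*. Its 5 genes summed to 4.36, 4.41 and 0.179 per 10,000 in label 8 and to 1.03, 1.195 and 0.0425 in label 9. Nearly all of that was *Lpl*, lipoprotein lipase, at 4.31, 4.36 and 0.143 in label 8, while *Cidec* was at 0 in every library of label 8 and *Adipoq* and *Plin1* stayed at or below 0.00762. Erythrocyte markers stood at 0.542, 3.78 and 22.7 in label 8 and at 19.6, 14.1 and 120.7 in label 9, and dissociation stress genes at 10.1, 8.61 and 3.94 and at 15.4, 8.60 and 5.08. The part of these lists in the melanocyte results was not tested. In male-typed cells *Scd1* was called in label 8 and, at 478, 533 and 44 such cells, not in label 9 (edgeR adjusted p = 0.0691), with a log2 difference of -3.31.

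In label 9, 6 of 28 members were called, 3 higher and 3 lower, beside 12.2% of all genes, 5.89% higher and 6.34% lower. *Sqle* was at 31.2, 25.2 and 66.4 CPM (log2 difference 1.24, SE 0.20), *Hsd17b7* at 8.16, 6.53 and 17.3 (1.24, SE 0.35) and *Msmo1* at 94.2, 68.0 and 119 (0.56, SE 0.17). For *Msmo1* the difference was 0.35 without control 2 and 0.81 without control 1. *Cyp51*, at 68.0, 42.5 and 32.2, and *Insig1*, at 47.5, 42.8 and 28.4, were lower, so sterol genes were called in both directions. Without control 1 the *Cyp51* log2 difference went from -0.77 to -0.40. Of 27 other pathway genes, 5 were higher and 2 lower. *Insig2* rose by 0.92 and *Elovl5* by 1.43 on the log2 scale, and *Acsl3* fell by 0.78. In male-typed cells of label 9 none of the 6 calls was made by edgeR, although each kept its direction.

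**Figure D5:**
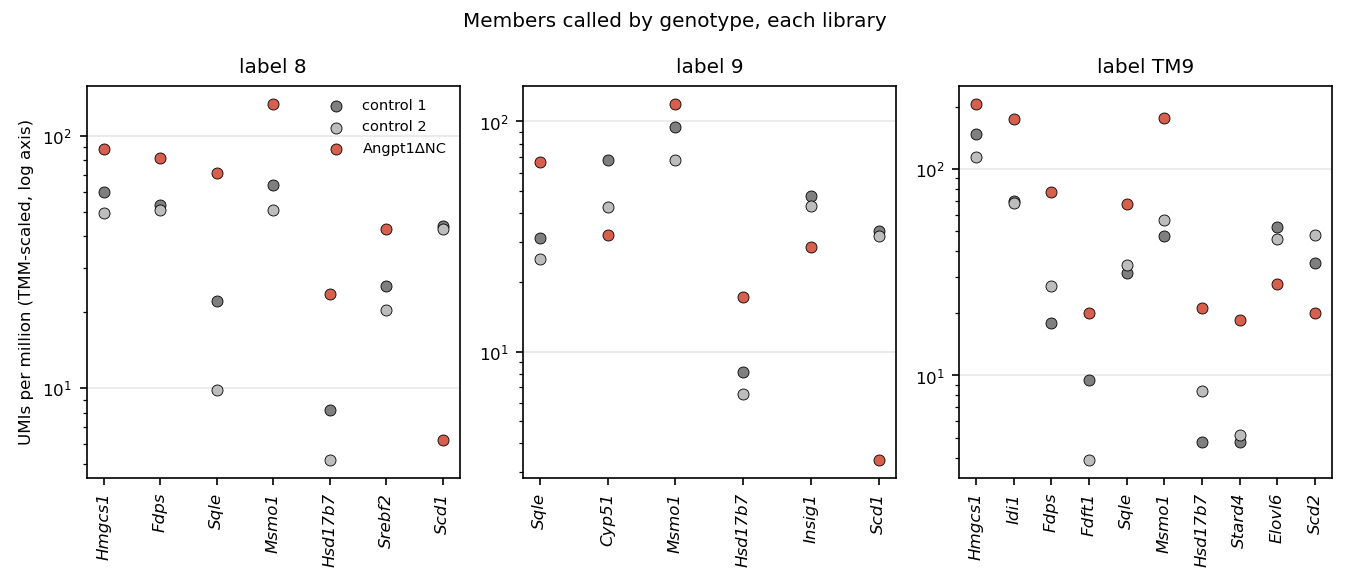
CPM after TMM scaling (log axis) in each of the 3 libraries for the members called by genotype in labels 8, 9 and TM9. The members drawn were picked by their call, which favors a mutant library outside both controls, as was seen in every case. The widest gaps were those of *Scd1* in labels 8 and 9.

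Across labels, *Sqle* was called only higher and *Cyp51*, which acts later in the same route, only lower, and the difference between the genes was not tested. *Sqle* was called higher in 7 of 26 labels tested (4, 8, 9, 13, TM1, TM9 and TM10) and lower in 0. *Msmo1* was above both controls in 21 of 28 labels and called higher in 5 of them, and *Hsd17b7* was called higher in 4 of 22. *Cyp51* was below both controls in 21 of 27 labels and was called lower in 3, label 9, label 21 and TM3, where it was at 304, 225 and 134 CPM in the 3 libraries (log2 difference -0.97, SE 0.23). *Srebf2* was above both controls in 20 of 27 labels and called higher in label 8 and in EC3, *Stard4* in 18 of 22 and called in TM9. *Insig1* was called lower in 9, EC3 and TM5. Of all pairs of a gene and a label, 38.2% lay above both controls and 39.3% below both, with 2.54% called higher and 2.52% lower. The labels share the same 3 libraries, so these counts over labels are not independent.

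In several other labels 1 or 2 members were called. *Sqle* was at 36.0, 23.97 and 49.3 CPM in limbal epithelium (label 4, 11.9% of all genes called), a log2 difference of 0.72 that was 0.46 without control 2 and 1.04 without control 1. *Hsd17b7* was at 6.13, 3.71 and 9.48 there, a difference of 0.95 that was 0.63 without control 2. *Sqle* was at 6.71, 8.83 and 38.2 in corneal stroma (label 13, 3.91% called), at 83.0, 60.3 and 148.1 in TM1 (4.79% called) and at 11.4, 18.2 and 37.5 in TM10 (11.6% called), and the mutant library stood above both controls each time. Label 13 held 1040887 and 1027883 UMIs in the controls, so the *Sqle* control values there rest on few counts. *Sqle* may have passed the filter on low counts in label 13 only through the mutant library. *Msmo1* was at 17.1, 18.9 and 40.9 in TM7 (5.07% called) and at 40.8, 27.996 and 78.8 in TM8 (3.58% called), where *Idi1* was at 29.03, 23.997 and 63.3. In TM5 (2.48% called), *Insig1* was at 220.5, 144.3 and 84.7 and *Sc5d*, a sterol desaturase, at 88.5, 59.2 and 30.9. *Elovl6* was at 21.7, 25.6 and 9.47 in TM4 (6.52% called). TM5 and TM4 thus held lower calls, and the mutant library stood below both controls. The meshwork markers summed to 127, 129 and 58.7 per 10,000 in TM4 and to 38.9, 49.3 and 16.8 in TM5. In TM4 the keratocyte markers were at 198, 227 and 394 and the pericyte markers at 9.80, 6.83 and 1.66. Their part in these results was not tested.

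*Fdft1* was called lower in TM3, at 71.4, 30.0 and 21.7, where 7.03% of all genes were called, but the log2 difference of -1.17 was only -0.47 without control 1. *Acat2*, *Mvd*, *Lss*, *Tm7sf2*, *Lbr*, *Nsdhl*, *Ebp*, *Dhcr7*, *Acly*, *Acss2* and *Fasn* were called in no label, and *Nsdhl* and *Ebp* are X-linked. Among the fatty acid genes, *Scd2* was below both controls in 20 of 26 labels and *Elovl6* in 16 of 23, beside 39.3% of all pairs of a gene and a label. *Scd2* was called lower in label 18 (49.0, 62.4 and 20.1), in pericytes of label 20 (15.3, 18.4 and 1.07) and in TM9. The UMIs in label 20 were 32, 42 and 1 for *Scd2* and 41, 34 and 4 for *Scd1*, so the mutant values rest on few counts. *Scd1* was lower in pericytes as well, at 19.6, 14.9 and 4.28, where 7.67% of all genes were called, 3.46% higher and 4.21% lower. The adipocyte markers, nearly all *Lpl*, were at 2.25, 1.44 and 0.718 per 10,000 in label 20 and the keratocyte markers at 8.05, 7.56 and 2.59, and their part in the result was not tested. Of the 41 other pathway genes, *Acsl3*, an acyl-CoA synthetase, was below both controls in 26 of 27 labels and called lower in 10. *Nr1h2*, which encodes a liver X receptor, was below both in 28 of 28 and called in 2. Of all pairs, 2.52% were called lower, and the labels share the same 3 libraries.

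By class, labels 19 to 21, pooled here as mural cells, had the most calls, 7 of the 26 members that passed, 2 higher and 5 lower, beside 16.4% of all genes, 9.12% higher and 7.23% lower. *Pmvk* was higher, at 55.6, 54.0 and 127.7 CPM (log2 difference 1.22, SE 0.16, edgeR adjusted p = 6.03e-05), and so was *Mvk*, at 12.98, 10.8 and 26.2. *Scd2* (44.1, 40.5 and 10.5), *Fdft1* (26.1, 23.2 and 8.51), *Scd1* (33.8, 28.8 and 12.4), *Cyp51* (50.1, 41.2 and 20.3) and *Hmgcs1* (119.6, 94.9 and 57.0) were lower, with the controls close together in each. The mural labels were mixed differently, with 387, 499 and 54 cells of label 19. With the 3 labels weighted equally, the *Scd2* difference moved from -2.01 to -1.33, *Fdft1* from -1.53 to -0.98 and *Scd1* from -1.33 to -0.70, and with equal cell numbers *Fdft1* and *Scd1* were no longer called (edgeR adjusted p = 0.245 and 0.0990). Within vascular smooth muscle alone (label 21), *Pmvk* was at 195.7, 170.4 and 447.8 and *Mvk* at 20.4, 20.5 and 72.6, and *Cyp51* and *Hmgcs1* were lower there, beside 8.21% of all genes called, 4.48% higher and 3.73% lower. In label 21 the smooth muscle markers summed to 134, 137 and 75.97 per 10,000, the pericyte markers to 32.8, 26.7 and 67.0 and the dissociation stress genes to 41.9, 50.1 and 19.97, and their part in these results was not tested. All 7 mural calls were also made in male-typed cells (689, 849 and 110 cells).

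The endothelial class pools EC2 to EC4 with the Schlemm's canal label SC and the lymphatic label LEC. The study counted proportionally fewer SC cells in *Angpt1*ΔNC. In endothelial cells, 3 of 21 tested members were called, beside 12.9% of all genes, 8.12% higher and 4.82% lower. *Srebf2* was higher, at 17.3, 13.9 and 30.8, and *Insig1* (51.8, 48.8 and 30.8) and *Scd2* (30.8, 25.0 and 11.2) were lower. With EC2, EC3 and EC4 alone weighted equally, the log2 differences went from 0.99 to 1.03, from -0.71 to -0.95 and from -1.30 to -1.64. LEC held 0, 0 and 8 of the *Srebf2* UMIs. The labels did not all share these directions. In EC4 *Srebf2* lay between the controls, at 0.208, 0.102 and 0.156 per 10,000, and in SC below both, at 0.245, 0.208 and 0.131. *Insig1* in EC4 was at 0.391, 0.584 and 0.374, close to control 1. EC2 held only 4, 4 and 12 *Srebf2* UMIs and 8, 9 and 2 *Insig1* UMIs. In EC3 alone, where 7.3% of all genes were called, *Srebf2* was at 11.6, 12.9 and 36.6 and *Insig1* at 70.4, 69.3 and 30.2, while *Abca1* rose by 0.76 on the log2 scale. The EC3 UMIs were 13, 18 and 17 for *Srebf2* and 79, 97 and 14 for *Insig1*, so the mutant values rest on few counts. The erythrocyte markers were at 77.6, 39.3 and 0.414 per 10,000 in EC3 and the adipocyte markers at 0.573, 0.884 and 0.0191. In EC4 the adipocyte markers were at 19.05, 10.1 and 0.903. Nearly all of the EC4 sum was *Fabp4*, at 18.96, 10.1 and 0.890, while *Adipoq*, *Plin1* and *Cidec* were at 0 in every library of EC4. In EC3 *Fabp4* was at 0.530, 0.880 and 0. The part of these lists in the endothelial results was not tested. With equal cell numbers per label, only *Scd2* was called in the class, and in male-typed cells only *Srebf2*. In stromal cells, 3 of 28 members were called, beside 8.97% of all genes, 3.46% higher and 5.52% lower. *Stard4* was higher, at 6.17, 7.47 and 13.96, and *Elovl6* (29.9, 29.6 and 17.3) and *Cyp51* (139.1, 123.8 and 86.2) were lower. The *Elovl6* log2 difference of -0.78 was -0.45 with the 11 labels weighted equally and -0.40 with equal cell numbers, where it was no longer called (edgeR adjusted p = 0.166). *Stard4* was not called in male-typed cells, with a log2 difference of 0.80 (edgeR adjusted p = 0.0536). In cluster 18, *Scd2* was the 1 call among 25 tested members, beside 3.22% of all genes. Limbal and corneal epithelium, pooled as labels 4 and 5, had 0 calls among 28 members in edgeR, beside 5.72% of all genes. Label 17 also had 0 calls among 28, beside 0.288%, and DESeq2 made 0 calls in both. *Sqle* and *Hsd17b7*, called in label 4 alone, had log2 differences of -0.098 and 0.53 in the pooled epithelium. With the 2 labels weighted equally these were 0.12 and 0.66. At an unadjusted p under 0.05 in edgeR the pooled epithelium had 5 members and label 17 had 9. The share of all genes at this threshold is not given here, so these counts are not read as a result about the members.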

How the data were processed

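The authors made the UMI counts with Cell Ranger against mm10 (version 2.1.1 per the labels and 3.0.2 per the file headers) and labelled the cells with Seurat 3.1.3. The deposited matrices hold raw counts, tested to be whole numbers, for 31053 genes, of which 30934 identifiers matched GENCODE M21. Cells kept by the authors (at least 200 genes and 1000 UMIs, at most 10% mitochondrial reads, doublets removed) were taken with their labels, and the other values of the deposited label tables, which go below 0, were not used. The kept cells held 76981606, 80346829 and 66484181 UMIs, and tests cover only the spread between these pools, with 1 residual degree of freedom per fit. The edgeR test also shares spread over genes, and the p-value at a given ratio of log2 difference to SE differed between labels. *Scd1* had a smaller p-value in label 9 (-3.26, SE 0.40) than in label 8 (-2.80, SE 0.21). Adjusted p-values and numbers of calls are therefore not directly comparable between labels or classes.

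Levels average, over cells, a gene's UMIs per 10,000. For genotype, counts were summed per label or class and library (at least 50 cells in each library for a label) and tested over all genes with edgeR 4.0.16 in R 4.3.3 (TMM factors, filterByExpr, quasi-likelihood F-test, Benjamini-Hochberg). The 2 control libraries give the only spread, and the SE is the log2 difference divided by the root of F. DESeq2 1.42.0, DESeq2 size factors, no filter, equal cell numbers, equal label weights, leaving out each control and male-typed cells were alternatives; the last was chosen after seeing the data. The test was checked on simulated counts. Other steps used Python 3.11.15, numpy 2.4.6, pandas 2.3.3 and scipy 1.17.1, with a pseudocount of 0.1 for log levels.

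The members, lists and tests were chosen with earlier results of these data known. Named are all members (per-library values for those called, those with the highest levels and the widest range of each role), genes among the 10 most alike over labels, and listed pathway genes that passed. *Scd1* with *Scd2* and *Acat2* with *Acat3* can share reads, and *Fdps*, *Tm7sf2*, *Srebf2*, *Acss2* and *Elovl6* overlap another gene on the same strand. Results for some genes outside the 28 members are not reported here.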

Additional observations from a re-analysis of the deposited data

Results flagged for a closer look

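*Fdft1* and *Hmgcs1* were each called in opposite directions in different cell types. *Fdft1* was higher in *Angpt1*ΔNC in TM9, with a log2 difference of 1.67, and lower in TM3, with -1.17. *Hmgcs1* was higher in melanocytes of label 8, with a log2 difference of 0.70, and in TM9, with 0.67, and lower in vascular smooth muscle of label 21, with -1.48. The difference between the cell types was not tested, and the cell types share the same 3 libraries.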

How the results depend on the processing

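No paired analysis was possible because the labels give the 2 groups only replicate number 1 in common. Among the alternatives run, no call changed direction. DESeq2 made far fewer calls: 0 of 3 in endothelial and stromal cells, 0 of 1 in cluster 18 and 2 of 7 in mural cells (*Pmvk* and *Scd2*), and over the labels 5 higher and 3 lower in place of 28 and 17. Without the filter, the stromal count was 8, the epithelial count 6 and the lower calls over labels 28. With equal cell numbers, 1 endothelial member and 3 members in label 17 were called, and 5 of the 14 class calls were lost (*Insig1* and *Srebf2* in endothelial, *Elovl6* in stromal, *Fdft1* and *Scd1* in mural cells). In male-typed cells alone, 3 of the 14 were lost (*Insig1* and *Scd2* in endothelial and *Stard4* in stromal cells), the endothelial count was 1, the label 17 count 3 and, over 24 labels, 12 higher calls were made in place of 27, with 17 lower in place of 16. The summed level of EC4 was 3.13 from pooled UMIs and 2.96 after thinning, against 3.28. The median ratio of the top to the bottom 20% of cells was 1.86 for the cholesterol genes with 25% in place of 20% and 2.65 without thinning, against 2.06, and 1.499 without thinning for the fatty acid genes, against 1.14. The median r of the fatty acid genes was 0.549 in *Angpt1*ΔNC, against 0.396. In each case the cause was not tested. Leaving out each library in turn gave a summed cholesterol level of 18.1 to 22.4 in label 18, 19.3 to 22.8 in label 7, 19.1 to 21.04 in label 17, 15.4 to 19.1 in TM2, 14.4 to 19.1 in label 5, 7.89 to 9.71 in TM9, 6.10 to 7.91 in label 8 and 3.25 to 3.31 in EC4. Genes near 1 UMI per 10,000 are missed in most cells at this depth.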

Other observations

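Of the 41 other pathway genes, *Ch25h*, which encodes cholesterol 25-hydroxylase, was called in both directions by class in edgeR, and the difference between classes was not tested. It was at 140, 174 and 73.2 CPM in stromal cells (control 1, control 2 and *Angpt1*ΔNC; log2 difference -1.10, SE 0.18) and at 30.2, 38.8 and 9.82 in mural cells (-1.82, SE 0.33), while in endothelial cells it was at 37.2, 43.4 and 69.8 (0.79, SE 0.21). *Apoe*, the lipoprotein that carries cholesterol between cells, was called higher in 7 of 29 labels and lower in 4, beside 2.54 and 2.52% of all pairs of a gene and a label. In TM9 it was at 5214, 5970 and 12253 CPM and in pericytes of label 20 at 680, 830 and 267, and the 2 controls differed less than the mutant library in both. *Elovl7*, an elongase, was at 1.97 and 2.43 in the controls and 12.3 in *Angpt1*ΔNC in stromal cells (2.47, SE 0.24) and at 4.13, 2.22 and 21.3 in endothelial cells (2.76, SE 0.46).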
